A study of Mus musculus with 24 samples.

Results

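The histone lysine demethylases of the deposited table were followed through the differentiation of male mouse embryonic stem cells (mESCs) in which a subunit of the BAF chromatin remodelling complex had been knocked down. The 9 genes *Kdm1a*, *Kdm2a*, *Kdm2b*, *Kdm3a*, *Kdm4a*, *Kdm4c*, *Kdm5a*, *Kdm5b* and *Kdm6b* were taken by an exact match of their symbols among 25965 entries. All 9 were among the 13296 genes whose mean level over the libraries was at least 0 on the log2 scale of rpm (reads per 1000000 reads). They are only a part of the histone demethylase genes in the table, and they were chosen with earlier results of these data known. Male C57/Bl6 mESCs were expanded in 2i medium, differentiated in DME HiHi medium, given a short hairpin RNA (shRNA) by virus at day 2 and put under puromycin at day 3. The hairpins were Smarcc1.6 and Smarcc1.7 against *Smarcc1*, Smarca4.4 and Smarca4.6 against *Smarca4*, and a nonsilencing hairpin (Nons), and total RNA was sequenced on days 4, 5, 6 and 7. This gave 8 *Smarcc1* knockdown, 8 *Smarca4* knockdown and 4 Nons libraries, with 1 library per hairpin and day, all from virus-transduced and drug-selected cells. The 4 libraries of a further Nons replicate were not analysed here, so each knockdown library was compared with 1 Nons library of its day. The 4 days of a hairpin are 1 culture series. Nothing in the labels says that the hairpins of a gene were carried in independently started cultures, so p-values measure the spread between these libraries.

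Histone lysine demethylases remove methyl groups from the tails of histones. KDM1A does so with a flavin-dependent amine oxidase domain, and the other 8 proteins use a Jumonji C domain that needs iron, oxygen and 2-oxoglutarate. Their substrates differ: KDM1A, KDM5A and KDM5B act on H3K4, KDM2A and KDM2B on H3K36, KDM3A on H3K9, KDM4A and KDM4C on H3K9 and H3K36, and KDM6B on H3K27. In embryonic stem cells these enzymes are known for tuning promoters and enhancers as pluripotency is left, and KDM2B is known for bringing a variant Polycomb complex to CpG islands.

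The 4 hairpin guides that define the knockdown groups are shown 5′ to 3′ as DNA, with the seed (bases 2 to 8) in capitals.
Smarcc1.6 guide: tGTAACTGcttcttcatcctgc
Smarcc1.7 guide: tTGCTCATcttcttccttctga
Smarca4.4 guide: tTTATTACtgtctgactccagt
Smarca4.6 guide: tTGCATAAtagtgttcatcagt
Each 22-base guide matched its target over its whole length in the GENCODE M21 transcripts (GRCm38, the assembly of mm10). The site of Smarcc1.6 was in coding exon 13 of *Smarcc1* (chr9:110177472-110177493, plus strand) and that of Smarcc1.7 in coding exon 11 (chr9:110173911-110173932). The site of Smarca4.6 was in coding exon 22 of *Smarca4* (chr9:21670504-21670525, plus strand), and that of Smarca4.4 in the 3′ UTR in exon 34 (chr9:21703327-21703348). No other gene's transcript held any of the 4 sites. Among the 9 demethylases the longest run of bases shared with a site was 12, in *Kdm4c* for Smarcc1.7.

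The targeted gene was below same-day Nons in all 8 libraries of each knockdown: *Smarcc1* had 23.7 to 60.1% of its Nons level and *Smarca4* 21.6 to 55.3%. A genotype label names Smarcc for the *Smarca4* libraries too, and the titles were followed. The summed level of 8 pluripotency genes fell from between 2277 and 2750 rpm at day 4 to between 553 and 979 rpm at day 7. Over the same days the sum of 5 trophoblast genes went from between 12.4 and 29.0 to between 98.5 and 175 rpm. That of 6 fibroblast genes went from between 6.83 and 12.1 to between 25.1 and 117 rpm. Few genes carried these sums: over the 20 libraries *Krt7* reached 154 rpm, while *Cdx2* and *Elf5* peaked at 1.28 and 0.32. *Col1a1* and *Col1a2* reached 60.4 and 51.7 rpm, while *Col3a1* and *Lum* peaked at 0.44 and 0.17. The sums are thus no measure of these cell types. The part of a change in cell makeup in the results below was not tested. Totals were 6829596 to 27472885 reads. Libraries also differed in how well long transcripts were represented: the median level of genes with over 6000 exon bases minus that of genes with under 1500 ranged from -0.33 to 1.45 (log2 rpm). It was under 0.2 in 5 libraries, Nons at day 6 and Smarcc1.6 and Smarca4.6 at days 5 and 6, and at least 0.46 in the other 15. None of these 5 libraries was from day 4 or day 7.

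The demethylase genes were expressed at different levels that kept much of their order through the timecourse. Per kb of exon, *Kdm1a* was highest in each of the 20 libraries, with 79.9 to 108 rpm per kb (median 88.5), and its lowest library lay above the highest *Kdm4c* library. *Kdm4c* followed with a median of 57.3 rpm per kb and exceeded *Kdm5b* (median 31.9) in 19 of 20 libraries. *Kdm5b* exceeded *Kdm3a* (median 24.7) in 13 of 20, so the order of this pair varied from library to library. *Kdm3a* exceeded *Kdm4a* in 20 of 20. *Kdm4a* (median 14.4), *Kdm2b* (13.5), *Kdm2a* (11.6) and *Kdm5a* (11.5) were close in rpm per kb, and *Kdm2a* exceeded *Kdm5a* in 9 of 20. *Kdm6b* was lowest, with 2.16 to 9.04 rpm per kb (median 5.90). The member with the fewest reads in any library was *Kdm6b*, with 243 reads in Smarca4.6 at day 6. The annotation places exons of other genes over those of *Kdm2b* (A930024E05Rik, Gm44574 and *Rnf34*) and *Kdm6b* (Kdm6bos), and strand use in the counting is not given in the sources used here, so reads of these neighbours cannot be told apart from those of the 2 demethylases.

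**Figure D1:**
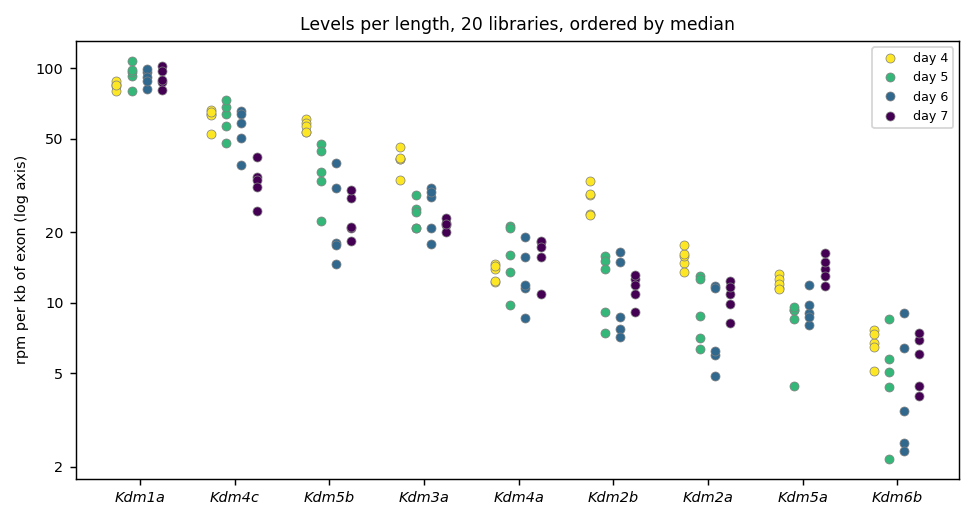
Level of each demethylase gene per kb of exon (rpm per kb, log axis) in the 20 libraries, coloured by day and ordered by the median. *Kdm1a* sits between 79.9 and 108 on every day, while the day 7 points of *Kdm4c*, *Kdm5b*, *Kdm3a* and *Kdm2b* lie below their day 4 points.

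The comparison of day 7 with day 4 addresses how the demethylases change as mESCs differentiate. *Kdm2b*, *Kdm5b*, *Kdm4c* and *Kdm3a* fell, *Kdm1a*, *Kdm4a*, *Kdm5a* and *Kdm6b* did not pass the test, and *Kdm2a* was close to it. The fit (limma with a mean for each group and day, contrasts averaged over the 3 groups, Benjamini-Hochberg adjusted p under 0.05) called 64.5% of all genes tested, 35.7% of the genes tested as higher and 28.8% as lower at day 7, against 4 of 9 demethylases, all lower. The split over all genes turned with scaling, from 4749 higher and 3826 lower as deposited to 4029 and 4704 after centring. The median change of the 9 genes was -0.61 (log2), and that of all genes tested was 0.08, or -0.09 after each library was centred on its median gene. In bulk RNA, fewer cells that express a gene and less RNA per cell cannot be told apart. Below, days that do not overlap and series that move alike are given as description. The share of all genes with such a pattern was not counted.

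Among the H3K4 demethylases, *Kdm5b* made the largest move. *Kdm5b*, which removes trimethylation and is known for its high level in embryonic stem cells, had 490.5 rpm in Nons, 557 and 537 in Smarcc1.6 and Smarcc1.7, and 521 and 490 in Smarca4.4 and Smarca4.6 at day 4. At day 7 the values were 168 rpm in Nons, 257 and 277 in the *Smarcc1* hairpins and 192 and 194 in the *Smarca4* hairpins. Every day 7 library was thus below every day 4 library. The fitted change was -1.32 ± 0.26 (log2, SE, adjusted p = 0.000589, limma), and it was lower in 5 of 5 culture series, by 0.96 to 1.55. From day 4 to day 5 it changed by -0.65 ± 0.26, which did not pass (adjusted p = 0.0616), and from day 5 to day 6 by -0.77 ± 0.26 (log2, adjusted p = 0.0371, limma, lower in 5 of 5 series). The latter step lost its call without the library of Smarca4.4 at day 5 (adjusted p = 0.0822) and under quantile normalization (adjusted p = 0.0711). It also lost it without either *Smarca4* hairpin or the Nons libraries (adjusted p = 0.108 to 0.187, limma). Its value there was -0.83 without Smarca4.4, -0.71 without Smarca4.6 and -0.51 without Nons.

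*Kdm5a*, the second enzyme of that family in the list, took a different course. It had 126 to 145 rpm at day 4, 48.2 to 105 at day 5, 87.9 to 130.2 at day 6 and 129 to 178 at day 7 (5 libraries a day). The dip at day 5 was -0.57 ± 0.19 (log2, adjusted p = 0.0334, limma, lower in 5 of 5 series), the rise from day 6 to day 7 was 0.56 ± 0.19 (adjusted p = 0.0447, higher in 5 of 5 series), and day 7 against day 4 was 0.17 ± 0.19 (adjusted p = 0.460), or -0.0092 after centring. Both steps run between days with and without the 5 libraries low in long transcripts, and *Kdm5a* has 10944 exon bases, the most of the 9 genes. After the relation to exon length was removed within each library, the dip was -0.17 (adjusted p = 0.380) and the rise 0.14 (adjusted p = 0.509), while with the 5 libraries left out they were -0.36 (adjusted p = 0.00301) and 0.42 (adjusted p = 0.00743). The dip also lost its call without Smarcc1.6, Smarcc1.7 or Smarca4.6 (-0.39 to -0.60, adjusted p = 0.0713 to 0.122) and under quantile normalization (adjusted p = 0.0897, limma). The rise lost it without Smarcc1.6, Smarcc1.7, Smarca4.6 or the Nons libraries (0.48 to 0.61, adjusted p = 0.0718 to 0.166). It was also lost with no filter, centring, quantile normalization, voom or thinning (adjusted p = 0.0551 to 0.148).

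*Kdm1a*, which encodes the demethylase of the CoREST repressor complex, was the steadiest of the 9 genes. It ranged from 245 to 330.2 rpm, a ratio of 1.35 between the highest and the lowest of 20 libraries, where the other 8 genes had ratios of 2.45 to 4.61. Day 7 against day 4 gave 0.10 ± 0.10 (log2, adjusted p = 0.410, limma). The value depended on scaling, being -0.079 after centring and 0.29 after quantile normalization, where it was called as higher (adjusted p = 0.0213).

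The H3K36 demethylases *Kdm2a* and *Kdm2b* carry the same kind of CpG-binding zinc finger, and both were lower at day 5. *Kdm2b* had 169 rpm in Nons, 193 and 170.1 in Smarcc1.6 and Smarcc1.7, and 140.4 and 138 in Smarca4.4 and Smarca4.6 at day 4. At day 7 it had 53.7 rpm in Nons, 74.3 and 76.8 in the *Smarcc1* hairpins and 69.7 and 63.8 in the *Smarca4* hairpins. The 2 days did not overlap, and the change was -1.33 ± 0.26 (log2, adjusted p = 0.000667, limma, lower in 5 of 5 series). The decrease was in place by day 5, at -1.17 ± 0.26 against day 4 (adjusted p = 0.00434, lower in 5 of 5 series), when its values were 43.6 to 92.3 rpm.

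*Kdm2a*, the closest relative of *Kdm2b*, had 131 to 171 rpm at day 4, 61.4 to 126 at day 5, 47.4 to 114 at day 6 and 79.9 to 119.9 at day 7. Day 7 libraries were all below day 4 libraries, and the change was -0.61 ± 0.27 (log2, adjusted p = 0.0666, limma, lower in 5 of 5 series). At day 5 it was -0.76 ± 0.27 against day 4 (adjusted p = 0.0437, lower in 5 of 5 series). The day 5 call was lost without Smarcc1.6, Smarca4.4, Smarca4.6 or the Nons libraries (-0.59 to -0.83, adjusted p = 0.0548 to 0.135, limma). It was also lost with a filter of 10 rpm on average (adjusted p = 0.0506) and under quantile normalization (-0.58, adjusted p = 0.0904). With the relation to exon length removed (9713 exon bases), day 7 against day 4 passed at -0.67 (adjusted p = 5.48e-05).

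Of the enzymes that act on H3K9, *Kdm3a* and *Kdm4c* fell and *Kdm4a* did not pass. *Kdm3a*, an eraser of mono- and dimethylation, had 168 rpm in Nons, 229.8 and 205 in Smarcc1.6 and Smarcc1.7, and 205 and 208 in Smarca4.4 and Smarca4.6 at day 4. At day 7 it had 108 rpm in Nons, 109.6 and 100.3 in the *Smarcc1* hairpins, and 115 and 108 in the *Smarca4* hairpins. All 5 series were lower, by 0.64 to 1.07 (log2), and the fitted change was -0.86 ± 0.13 (adjusted p = 9.02e-05, limma). As for *Kdm2b*, the fall was there at day 5, at -0.70 ± 0.13 (adjusted p = 0.00145, lower in 5 of 5 series).

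*Kdm4c*, an eraser of trimethylation, fell later than the others. Its 5 libraries had 227 to 287 rpm at day 4, 208 to 318 at day 5 and 167 to 285 at day 6. At day 7 it had 107 rpm in Nons, 182 and 149 in Smarcc1.6 and Smarcc1.7, and 144 and 135 in Smarca4.4 and Smarca4.6. Day 5 against day 4 was 0.04 ± 0.14 (log2, adjusted p = 0.841, limma), while day 7 against day 6 was -0.72 ± 0.14 (adjusted p = 0.00338, lower in 5 of 5 series). Day 7 against day 4 was -0.95 ± 0.14 (adjusted p = 5.08e-05, lower in 5 of 5 series).

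*Kdm4a*, of the same family as *Kdm4c*, had 62.0 to 73.7 rpm at day 4 and 55.0 to 92.4 rpm at day 7, with a change of 0.16 ± 0.23 (log2, adjusted p = 0.544, limma), or -0.013 after centring. Nons was the 1 series of 5 in which it was lower at day 7. *Kdm6b*, which erases H3K27 methylation, had 33.9 to 50.8 rpm at day 4, 14.4 to 56.6 at day 5, 15.4 to 60.2 at day 6 and 26.6 to 49.6 at day 7. Its change was -0.32 ± 0.40 (log2, adjusted p = 0.497), lower in 3 of 5 series. The days overlapped, and the *Smarcc1* hairpins stood far apart at day 5, with 14.4 rpm in Smarcc1.6 and 56.6 in Smarcc1.7.

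**Figure D2:**
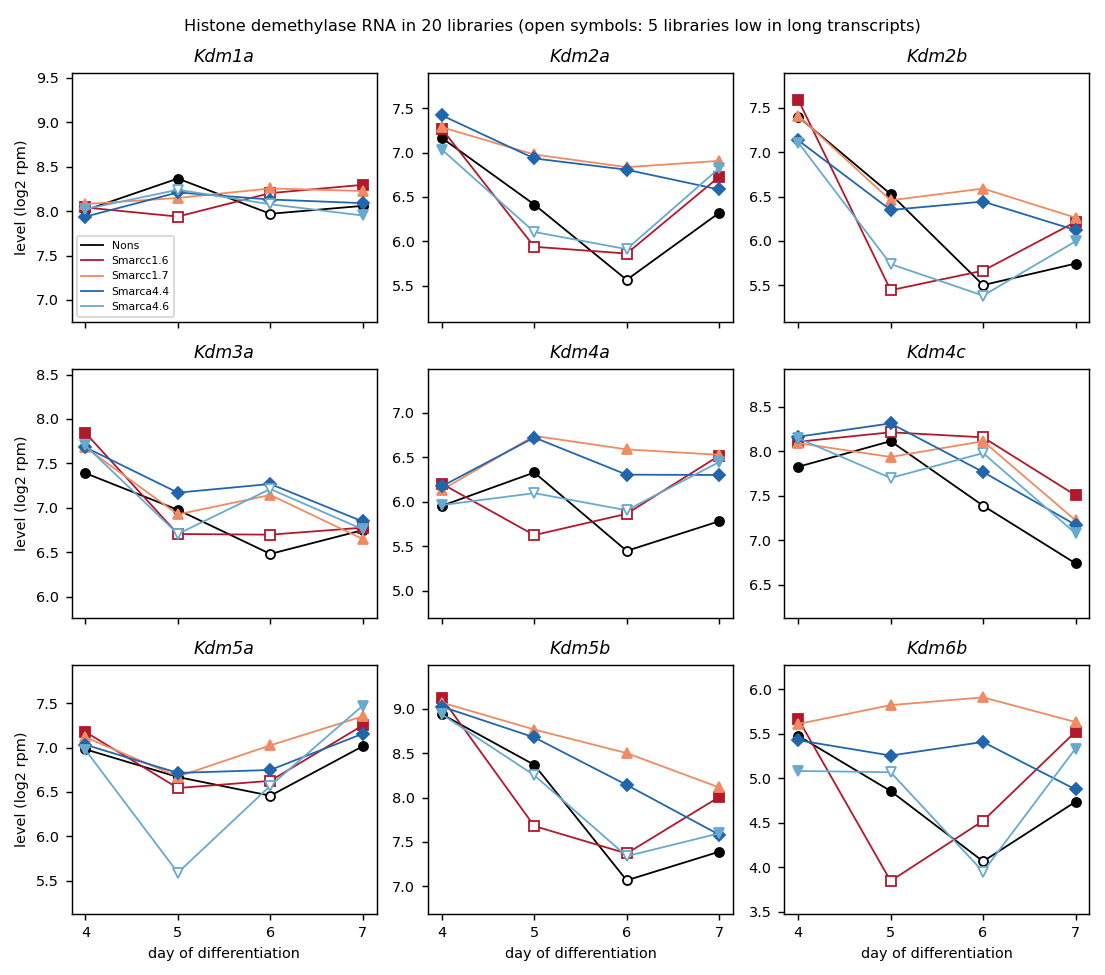
Level (log2 rpm) of the 9 demethylase genes by day of differentiation in the Nons series and the 4 hairpin series, each panel spanning the same range. Open symbols are the 5 libraries low in long transcripts, in which *Kdm2a* and *Kdm5b* are lowest of their day. *Kdm5b* and *Kdm2b* end below their start in each series and *Kdm1a* spans the narrowest range.

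**Figure D3:**
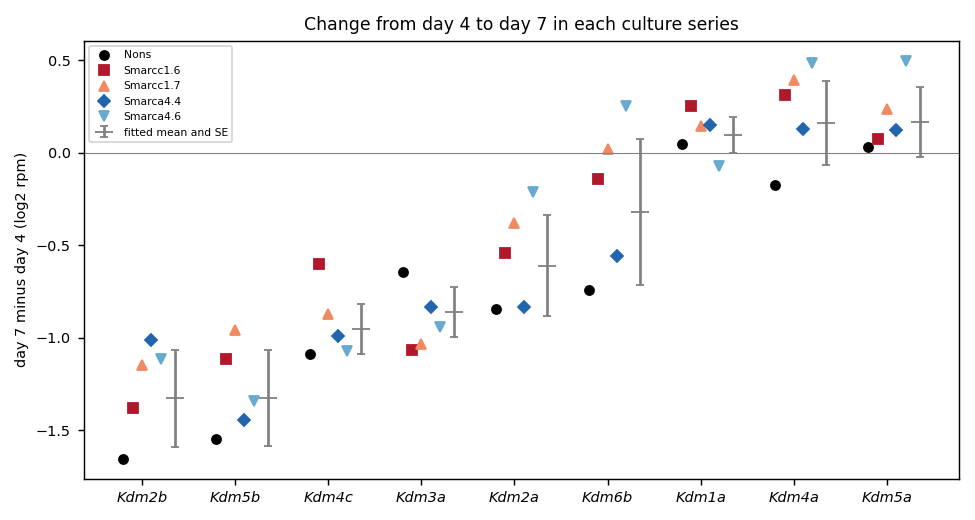
Day 7 minus day 4 (log2 rpm) for each demethylase gene in each of the 5 series, with the fitted mean and its SE in grey. All 5 series of *Kdm2b*, *Kdm5b*, *Kdm4c*, *Kdm3a* and *Kdm2a* lie below 0, and all 5 of *Kdm5a* lie above it, although its fitted mean went to -0.0092 when libraries were centred.

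By single steps, the fit called 4 of 9 demethylases from day 4 to day 5 (*Kdm2a*, *Kdm2b*, *Kdm3a* and *Kdm5a*, all lower; 38.7% of all genes called, 19.2% lower). From day 5 to day 6 it called *Kdm5b* as lower (32.3% of all genes, 15.3% lower). From day 6 to day 7 it called *Kdm4c* as lower and *Kdm5a* as higher, where 27.5% of all genes were called, 10.6% lower and 16.9% higher. The split over all genes at that last step depended on scaling, with 2248 higher and 1408 lower as deposited, against 1407 and 2278 once each library was centred. There *Kdm5a* was 0.36 (adjusted p = 0.148, limma). The falls of *Kdm2b*, *Kdm5b*, *Kdm4c* and *Kdm3a* from day 4 to day 7 were called under all 17 alternatives run for that comparison, and among the 5 genes called after length correction all were lower, beside 36.1% of all genes. Without the 5 libraries low in long transcripts, which leaves the day 4 and day 7 libraries as they were but takes the spread from those days alone, 7 of 9 genes were called (82.7% of all genes), with *Kdm4a* at 0.16 (adjusted p = 0.0414) and *Kdm6b* at -0.32 (adjusted p = 0.0147) added to the 4 and *Kdm2a*.

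The 5′ flanks of the 4 genes that fell are shown because each of them was lower at day 7 than at day 4 in all 5 series, although *Kdm4c* fell later. They are RefSeq windows (GRCm38.p6) of 250 bases before a start, cut where an annotated exon of the gene begins. Those of *Kdm2b* and *Kdm4c* precede internal starts, within the deposited spans of these genes (chr5:122870668-123015080 and chr4:74242497-74405860). For genes with several starts 1 window is shown. After the cut it had 36 CG for *Kdm2b*, 14 for *Kdm3a* and 19 for *Kdm4c*, where uncut windows held 12 to 38, 0 to 31 and 0 to 19. Capitals mark matches on either strand to the motif GGGCGG, to the motif CCAAT or to the motif CACGTG.
*Kdm5b* (chr1:134559928-134560170, plus strand): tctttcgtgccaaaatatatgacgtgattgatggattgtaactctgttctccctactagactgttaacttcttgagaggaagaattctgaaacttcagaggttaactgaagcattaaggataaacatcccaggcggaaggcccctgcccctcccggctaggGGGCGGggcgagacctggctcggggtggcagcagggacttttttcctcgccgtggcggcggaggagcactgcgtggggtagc
*Kdm2b* (chr5:122900368-122900617, minus strand): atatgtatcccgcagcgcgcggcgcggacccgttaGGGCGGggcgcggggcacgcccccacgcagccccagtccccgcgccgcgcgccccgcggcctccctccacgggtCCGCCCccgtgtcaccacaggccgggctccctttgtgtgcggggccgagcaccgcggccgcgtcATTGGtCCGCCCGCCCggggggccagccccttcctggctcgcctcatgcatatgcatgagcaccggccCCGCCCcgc
*Kdm3a* (chr6:71632991-71633167, minus strand): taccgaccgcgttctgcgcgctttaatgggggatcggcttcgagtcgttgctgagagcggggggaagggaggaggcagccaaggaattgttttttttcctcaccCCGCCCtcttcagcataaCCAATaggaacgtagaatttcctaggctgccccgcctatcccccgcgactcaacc
*Kdm4c* (chr4:74251629-74251878, plus strand): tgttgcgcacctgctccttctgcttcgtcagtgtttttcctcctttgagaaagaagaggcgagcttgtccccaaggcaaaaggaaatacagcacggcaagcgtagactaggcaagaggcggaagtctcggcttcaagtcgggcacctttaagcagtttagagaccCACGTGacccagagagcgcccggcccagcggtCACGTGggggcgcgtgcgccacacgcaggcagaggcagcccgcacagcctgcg
GGGCGG, on either strand, was in 32.7% of 32851 uncut windows of 250 bases of all genes, CCAAT in 33.8% and CACGTG in 6.02%. The *Kdm5b* and *Kdm3a* stretches were cut to 243 and 177 bases, so they are not the same measure. Uncut, this *Kdm3a* window held 2 matches to GGGCGG and 2 to CCAAT. The *Kdm2b* window held 5 matches to GGGCGG, some of them overlapping, and 1 to CCAAT. The *Kdm5b* and *Kdm3a* stretches held 1 match each to GGGCGG, and that of *Kdm3a* 1 to CCAAT. The *Kdm4c* window held 2 matches to CACGTG and none to the other motifs. No motif was thus shared by all 4 windows shown, which ranged from 54.3 to 78.0% GC, with a median of 52.4% over all windows. These features depended on the start shown. The other *Kdm4c* window (39.6% GC) held no CACGTG, a further *Kdm3a* window (48.4% GC) none of the 3 motifs, and a further *Kdm2b* window (58.4% GC) no GGGCGG. Windows were found for 6 of the 9 genes, and *Kdm2a*, *Kdm5a* and *Kdm6b* had no entry.

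The next comparisons ask whether loss of *Smarcc1* or *Smarca4* changes the demethylases. No demethylase was called in *Smarcc1* knockdown against Nons over days 4 to 7 (0 of 9, where 10.6% of all genes were called), 1 of 9 had an unadjusted p under 0.05, and limma-voom on recovered reads called 0 too. All 9 fitted values were above 0, with a median of 0.36 (log2) beside 0.06 over all genes, and under centring all but *Kdm1a* (-0.011) stayed above 0. In *Smarca4* knockdown against Nons 0 of 9 were called (6.71% of all genes), 2 of 9 had an unadjusted p under 0.05, and voom called 0. Here 7 of 9 values were above 0, with a median of 0.27 beside 0.06, and centring moved *Kdm5a* below 0 (-0.073). Both medians leaned on 1 hairpin: without Smarcc1.7 the *Smarcc1* median was 0.11, without Smarca4.4 the *Smarca4* median was 0.09, and after length correction they were 0.12 and 0.15. Both knockdowns were set against the same Nons libraries, so their values are not independent of each other. Over all genes, calls split into 1003 higher and 409 lower for *Smarcc1* and 631 and 261 for *Smarca4*, and after quantile normalization into 600 and 518 and into 351 and 313.

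*Kdm4c* came nearest to the threshold. In *Smarcc1* knockdown it was 0.40 ± 0.13 (log2, SE, 1.32-fold, adjusted p = 0.0623, limma), higher than same-day Nons in 7 of 8 libraries, and in *Smarca4* knockdown 0.27 ± 0.13 (adjusted p = 0.256), higher in 7 of 8. At day 4 it had 227 rpm in Nons and 273 to 287 in the 4 hairpins, and at day 7 it had 107 in Nons and 135 to 182. Nons, with 1 library a day, was thus lowest on both days, and the share of all genes with this order was not counted. Nons was lowest at day 6 too, at 167 rpm against 218 to 285. At day 5 Nons, at 277 rpm, lay within the hairpins' 208 to 318. The *Smarcc1* value passed the test without day 5 (0.55, adjusted p = 0.00545), without the smallest library, Smarca4.4 at day 5 (0.40, adjusted p = 0.0194), and with additive terms for group and day (adjusted p = 0.0417), but it was 0.29 without day 6, when Nons was low in long transcripts (adjusted p = 0.371). With the 4 days of each series as a replicate block, the *Smarcc1* value had an adjusted p of 0.252 (limma). The *Smarca4* value was 0.40 without day 5 (adjusted p = 0.0381) and 0.20 without day 6 (adjusted p = 0.616). At day 7 the arms also differed in cell-state markers: the pluripotency sum was 553 rpm in Nons, 778 to 979 in *Smarcc1* and 598 in both *Smarca4* libraries, the fibroblast sum 51.3, 94.9 to 117 and 25.1 to 41.2 rpm, and the trophoblast sum 175, 98.5 to 109 and 125 to 174 rpm, in the same order. As said above, few genes carried the fibroblast and trophoblast sums, with *Col1a1*, *Col1a2* and *Krt7* the highest. The part of these markers in the knockdown values was not tested.

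The other 2 members of the H3K9 group also had values above 0 in both knockdowns. *Kdm3a* was 0.27 ± 0.12 (log2, adjusted p = 0.248, limma) in *Smarca4* knockdown, higher in 7 of 8 libraries, and 0.15 ± 0.12 (adjusted p = 0.506) in *Smarcc1* knockdown, higher in 5 of 8. *Kdm4a* was 0.40 ± 0.21 (adjusted p = 0.285) and 0.36 ± 0.21 (adjusted p = 0.375) in *Smarcc1* and *Smarca4* knockdown, each higher in 7 of 8. It had 55.0 rpm in Nons at day 7 against 78.9 to 92.4 in the 4 hairpins. Its *Smarcc1* value was 0.58 without day 5 (adjusted p = 0.0385), 0.27 without day 6 (adjusted p = 0.621) and 0.17 without Smarcc1.7 (adjusted p = 0.721).

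For *Kdm5b* the fitted values were 0.39 ± 0.24 (log2, adjusted p = 0.371, limma) in *Smarcc1* and 0.25 ± 0.24 (adjusted p = 0.616) in *Smarca4* knockdown. At day 6 it had 134 rpm in Nons, 165 and 162 in Smarcc1.6 and Smarca4.6, but 362 and 282 in Smarcc1.7 and Smarca4.4. The 3 low values were from libraries low in long transcripts. *Kdm6b* showed the same split at that day, with 16.7 rpm in Nons, 23.0 and 15.4 in Smarcc1.6 and Smarca4.6, and 60.2 and 42.5 in Smarcc1.7 and Smarca4.4, and its fitted values were 0.53 ± 0.36 (adjusted p = 0.431) and 0.27 ± 0.36 (adjusted p = 0.754). *Kdm2a* was 0.36 ± 0.25 (adjusted p = 0.444) and 0.34 ± 0.25 (adjusted p = 0.513). Without Smarcc1.7 the *Smarcc1* values were 0.10 for *Kdm5b*, 0.11 for *Kdm6b* and 0.08 for *Kdm2a*, and without Smarca4.4 the *Smarca4* values were 0.09, 0.07 and 0.10. *Kdm1a*, *Kdm2b* and *Kdm5a* had values between -0.02 and 0.19 over both knockdowns, with adjusted p of 0.571 to 0.997.

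Taken day by day, the hairpins lay on the same side of Nons for many of the 9 genes, and the count moved with the day. Both *Smarcc1* hairpins were above Nons for 9 of 9 genes at day 4 (46.2% of all genes), 0 of 9 at day 5 (21.3%), 9 of 9 at day 6 (42.4%) and 8 of 9 at day 7 (54.0%). Both *Smarca4* hairpins were above Nons for 3 of 9 at day 4 (40.2% of all genes), 1 of 9 at day 5 (43.2%), 7 of 9 at day 6 (38.2%) and 8 of 9 at day 7 (46.3%). Both were below Nons for 3 of 9 in *Smarcc1* knockdown at day 5 (22.5% of all genes). In *Smarca4* knockdown both were below for 2 of 9 at day 4 (32.7%) and 2 of 9 at day 5 (20.6%). These counts rest on 1 Nons library a day, have no test, and the 9 genes share those libraries. At day 6 the Nons library was itself low in long transcripts.

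The values that moved with the representation of long transcripts stood beside these results. Across the 20 libraries, which share depth, day and series, the difference between long and short genes and the log2 level correlated at 0.87 for *Kdm5a*, 0.80 for *Kdm2a*, 0.78 for *Kdm6b*, 0.64 for *Kdm4a*, 0.59 for *Kdm2b*, 0.43 for *Kdm5b*, 0.35 for *Kdm3a*, 0.05 for *Kdm1a* and -0.25 for *Kdm4c* (Pearson's r, description only). Without the 5 libraries lowest in this measure, chosen after seeing the data, the fit called 5 of 9 genes as higher in *Smarcc1* knockdown (25.8% of all genes called as higher): *Kdm2a* at 0.39, *Kdm4a* at 0.46, *Kdm4c* at 0.24, *Kdm5b* at 0.41 and *Kdm6b* at 0.66 (log2, adjusted p = 0.001 to 0.0301, limma). It called 3 of 9 as higher in *Smarca4* knockdown (17.2% of all genes): *Kdm2a* at 0.32, *Kdm4a* at 0.37 and *Kdm4c* at 0.31 (adjusted p = 0.00662 to 0.0396). This fit sets day 6 aside, because no Nons library remains, and takes its spread from the hairpin pairs of days 4 and 7 alone. Its day 5 sets only Smarcc1.7 or Smarca4.4, the hairpins on which the medians leaned, against 1 Nons library. After length correction in all 20 libraries, also chosen after seeing the data, 0 of 9 were called in either knockdown, and the largest value was 0.36 for *Kdm6b* in *Smarcc1* knockdown (adjusted p = 0.373). The knockdown calls on the 9 genes thus depended on how these libraries were treated, and the part of RNA length in them was not tested further.

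**Figure D4:**
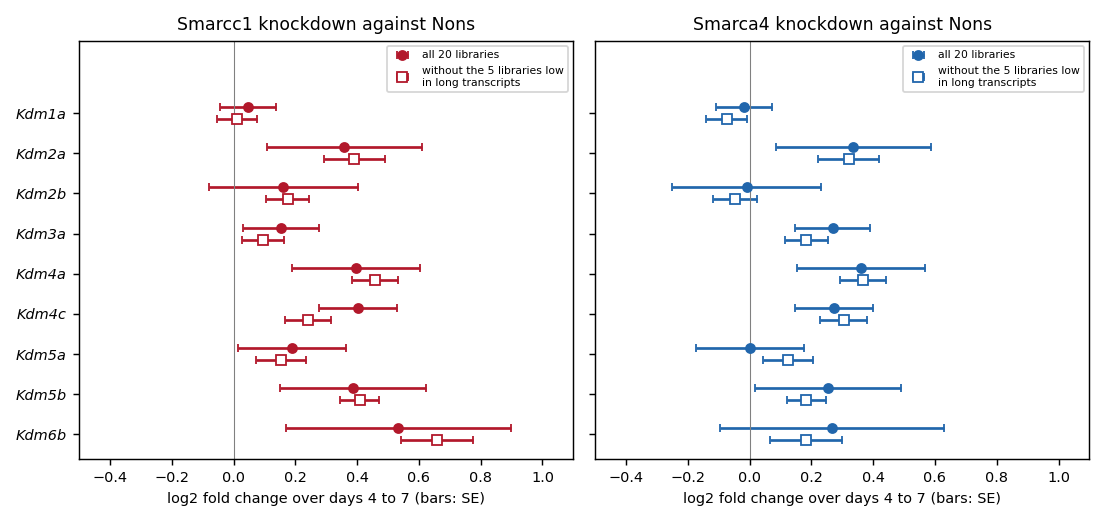
Log2 fold change against Nons over days 4 to 7 for the 9 demethylase genes in *Smarcc1* (left) and *Smarca4* knockdown (right), with bars of 1 SE. Filled circles are the fit on all 20 libraries, with 0 of 9 genes called, and open squares the fit without the 5 libraries low in long transcripts, with 5 and 3 genes called. At day 5 the latter fit holds 1 hairpin of each knockdown.

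**Figure D5:**
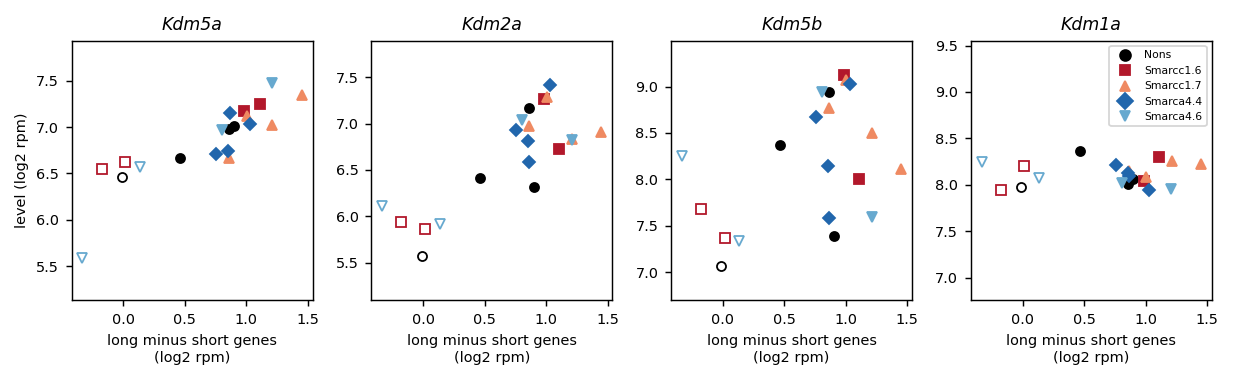
Level (log2 rpm) of 4 demethylase genes against the median of long genes (over 6000 exon bases) minus that of short genes (under 1500) in each of the 20 libraries. Open symbols are the 5 libraries under 0.2. *Kdm5a* and *Kdm2a* rise along the axis and *Kdm1a* shows no such trend (r = 0.05).

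The knockdowns were also compared with each other. No demethylase differed between *Smarcc1* and *Smarca4* knockdown (0 of 9 called, 4.09% of all genes; 0 of 9 with an unadjusted p under 0.05; voom 0), and the values ran from -0.12 ± 0.10 (log2) for *Kdm3a* to 0.27 ± 0.30 for *Kdm6b*. Without the 5 libraries *Kdm2b* (0.20), *Kdm5b* (0.26) and *Kdm6b* (0.48, log2) were called as higher in *Smarcc1* knockdown, beside 12.1% of all genes. At days 5 and 6 that fit set Smarcc1.7 alone against Smarca4.4 alone. Its calls thus hold no measure of the spread between hairpins on those days. With all days kept, the values in the same order were -0.055, -0.15 and -0.16 without Smarcc1.7, and -0.058, -0.028 and 0.075 without Smarca4.6. They were 0.40, 0.42 and 0.69 without Smarcc1.6, and 0.40, 0.30 and 0.46 without Smarca4.4.

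Whether the course from day 4 to day 7 itself differed from that in Nons was tested as an interaction. It was called for 0 of 9 genes in *Smarcc1* knockdown (0.459% of all genes) and 0 of 9 in *Smarca4* knockdown (0.0827%), with 0 of 9 at an unadjusted p under 0.05 in each and 0 by voom. *Kdm5b* fell by 1.55 in Nons and by 1.11, 0.96, 1.44 and 1.34 in Smarcc1.6, Smarcc1.7, Smarca4.4 and Smarca4.6 (log2), and its interaction was 0.51 ± 0.67 for *Smarcc1* and 0.16 ± 0.67 for *Smarca4*. *Kdm3a* went the other way, with a fall of 0.64 in Nons and of 0.83 to 1.07 in the hairpins, and interactions of -0.41 ± 0.34 and -0.25 ± 0.34. The adjusted p was 0.999 or above for every gene (limma), with standard errors of 0.26 to 1.03. There was 1 Nons series, so these standard errors take their spread from the hairpin pairs and hold no measure of the spread of Nons.

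Members varied together to different degrees. Over the 20 libraries the log2 levels of *Kdm2b* and *Kdm5b* correlated at 0.91, those of *Kdm2a* and *Kdm2b* at 0.89 and those of *Kdm2a* and *Kdm6b* at 0.85, while *Kdm4c* and *Kdm5a* stood at -0.28 (Pearson's r over libraries that share day and series, description only). Among 13295 other genes, the pattern most like that of *Kdm5b* was *Cdk12* (r = 0.98), and for *Kdm2a* *Tmem131* (0.98), *Kdm6b* *Pogz* (0.98), *Kdm2b* *Kpnb1* (0.97) and *Kdm5a* *Atl3* (0.96). For *Kdm4c* it was *Chek1* (0.92), for *Kdm3a* *Epc1* (0.91), for *Kdm4a* 4732471D19Rik (0.90) and for *Kdm1a* *Spats2* (0.83).

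Other histone demethylase genes gave a mixed picture from day 4 to day 7. Of 14 on a list, 13 were tested, 3 rose and 4 fell (median -0.19, log2, beside 0.08 over all genes), and 0 were called in either knockdown. Over all genes 35.7% rose and 28.8% fell between these days, which is the background of this and the following lists. The largest rises among the called genes were *Kdm7a*, a dual H3K9 and H3K27 demethylase, at 0.72 ± 0.22 (adjusted p = 0.0125, limma) and *Kdm8* at 0.47 ± 0.17 (adjusted p = 0.0253). The largest falls were *Jmjd1c*, a relative of *Kdm3a*, at -1.02 ± 0.29 (adjusted p = 0.00836) and *Riox2* at -0.96 ± 0.11 (adjusted p = 7.35e-06).

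Genes listed as methyltransferases of the same marks moved in both directions, and activity of their proteins was not measured. Of 7 genes listed for H3K4 1 rose and 3 fell (median -0.58). The only rise was *Kmt2e* at 1.14 (adjusted p = 0.00741, limma). The largest falls were *Setd1b* at -1.74 (adjusted p = 0.00127) and *Kmt2c* at -1.61 (adjusted p = 0.000947). Of 6 H3K9 methyltransferases 1 rose (*Suv39h1*, 0.45, adjusted p = 0.00309) and 3 fell, led by *Ehmt2* at -1.11 (adjusted p = 1.95e-05) and *Setdb1* at -0.76 (adjusted p = 0.00537, median -0.36). The H3K27 methyltransferases split, with *Ezh1* at 1.06 (adjusted p = 0.000435) and *Ezh2*, the catalytic subunit of Polycomb repressive complex 2 in stem cells, at -0.76 (adjusted p = 8.43e-05, median 0.15). Of 5 H3K36 methyltransferases 1 rose (*Nsd2*, 0.96, adjusted p = 0.00138) and 2 fell (*Nsd1*, -1.42, adjusted p = 0.000714, and *Setd2*, -0.91, adjusted p = 0.0132, median -0.17). None of these 20 genes was called in either knockdown.

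The known partners of 2 members were followed too. Of 10 genes of the KDM1A and CoREST complex 3 rose and 4 fell from day 4 to day 7 (median -0.21). *Rcor2*, the CoREST protein known for embryonic stem cells, fell by 1.36 ± 0.18 (log2, adjusted p = 2.62e-05, limma) and *Phf21a*, a reader of unmethylated H3K4, by 1.03 ± 0.21 (adjusted p = 0.000757), and *Rcor3*, another CoREST protein, rose by 0.76 ± 0.23 (adjusted p = 0.0125). These partners included the only list genes called in a knockdown: *Rcor2* was higher in *Smarcc1* knockdown, at 0.73 ± 0.17 (adjusted p = 0.0133), and *Phf21a* in *Smarca4* knockdown, at 0.81 ± 0.19 (adjusted p = 0.0231), which makes 1 of 10 in each, beside 10.6% and 6.71% of all genes. Of 8 partners of KDM2B in its Polycomb complex 1 rose and 3 fell (median -0.15): *Pcgf1*, which defines the complex, was at 0.93 ± 0.19 (adjusted p = 0.000836), *Bcor* at -1.15 ± 0.26 (adjusted p = 0.00156) and *Rybp* at -1.08 ± 0.17 (adjusted p = 0.000137). *Kdm2b* and *Bcor* thus fell while *Pcgf1* rose, and 0 of the 8 were called in either knockdown.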

How the data were processed

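Reads of 75 bp were trimmed by the authors, aligned to mm10 (HISAT2 per the labels; the paper also names tophat) and quantified per gene in SeqMonk, and the authors deposited log2 rpm values. Per library the lowest value equals 0.9 of a read, and 100% of values below 1000 reads were whole reads within 0.01. The annotation and strand use are not given in the sources used here. The 9 genes and the lists were chosen with earlier results of these data known. From the deposited log2 values, limma 3.58.1 in R 4.3.3 (lmFit, eBayes with trend) was fitted to 13296 genes with a mean of at least 0 in 20 libraries, with 12 means (3 groups by 4 days), 8 residual degrees of freedom from the hairpin pairs and Benjamini-Hochberg adjusted p under 0.05. All 9 genes are named in every comparison. From each list, genes called in a knockdown and at most 2 rises and 2 falls called from day 4 to day 7 are named. One list gene that this rule names is not reported here. For each member the gene with the highest Pearson correlation over libraries is given. Gene lengths are the union of exons in GENCODE M21 (98.4% of genes tested). The procedure was tested on simulated data. The alternatives tried were other filters, an added 1 rpm, centring, quantile normalization, voom, thinning, additive terms, a replicate block and leaving out libraries, hairpins or days; length correction (lowess, span 0.3) and leaving out the 5 libraries were added after seeing the data.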

Additional observations from a re-analysis of the deposited data

Results flagged for a closer look

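In each knockdown the 8 differences from same-day Nons, and the 4 Nons levels, were searched for a sample far from the others, in 27 groups of values in all, and chance flags about 1 group in 20. A total of 3 values stood apart. *Kdm4c* in Smarca4.6 at day 5 was -0.41 (log2) from Nons, while the other 7 *Smarca4* libraries were at 0.20 to 0.59. *Kdm5a* in Smarca4.6 at day 5 was -1.08, with the others at -0.01 to 0.46. *Kdm5b* in Smarca4.4 at day 6 was 1.07, with the others at -0.12 to 0.31. The library of Smarca4.6 at day 5 had the lowest representation of long transcripts of all 20, at -0.33, and Nons at day 6, against which the *Kdm5b* value was taken, had -0.01. The part of this measure in the 3 values was not tested.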

How the results depend on the processing

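Of 158 recomputed counts of demethylases called, 130 stayed within 1.5 times of the reported one. For *Smarcc1* knockdown, reported as 0, additive terms gave 1, leaving out Smarca4.4 at day 5 gave 1, leaving out day 5 gave 2 and leaving out the 5 libraries low in long transcripts gave 5. For *Smarca4* knockdown, also 0, leaving out day 5 gave 1 and the 5 libraries 3. Without the 5 libraries the count was 3 between the knockdowns, 1 for the *Smarcc1* interaction (*Kdm5b*, 0.51, adjusted p = 0.0493, limma), 7 for day 7 against day 4, 7 for day 5 against day 4, 2 for day 6 against day 5 and 5 for day 7 against day 6. From day 5 to day 6, quantile normalization gave 0, leaving out Nons 0 and length correction 3. Leaving out Smarca4.4 at day 5 kept that count at 1, but with *Kdm5a* as higher (0.36, adjusted p = 0.0452, limma) in place of *Kdm5b*. From day 6 to day 7, no filter, centring, quantile normalization, voom, thinning and leaving out Nons each gave 1. Leaving out 1 hairpin gave 2 to 4 from day 4 to day 5, 0 to 1 from day 5 to day 6 and 1 to 2 from day 6 to day 7.

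Values that turned sign were uncalled. Against Nons in *Smarcc1* knockdown *Kdm1a* went to -0.011 (centred), -0.037 (voom), -0.024 (without day 6), -0.0048 (without day 7) and -0.037 (length-corrected), and *Kdm5a* to -0.061 (length-corrected). In *Smarca4* knockdown *Kdm1a* went to 0.022 without day 5, *Kdm2b* to 0.0064 (thinned), 0.081 (without day 4) and 0.15 (without day 5), and *Kdm5a* to -0.073 (centred), -0.0078 (quantile), -0.087 (voom), -0.0027 (thinned), -0.14 (without Smarca4.4 at day 5), -0.0050, -0.065 and -0.097 (without days 4, 6 and 7) and -0.12 (length-corrected). Between knockdowns *Kdm2a* went to -0.0072 (without day 7) and -0.088 (length-corrected) and *Kdm4a* to -0.0018 (without day 7). From day 4 to day 7 *Kdm1a* went to -0.079 (centred) and -0.035 (length-corrected), *Kdm4a* to -0.013 and *Kdm5a* to -0.0092 (both centred). Without 1 hairpin, *Kdm2b* spanned -0.065 to 0.39 in *Smarcc1* and -0.24 to 0.22 in *Smarca4* knockdown, *Kdm5a* -0.13 to 0.13 in *Smarca4* knockdown, and between knockdowns *Kdm2a* spanned -0.25 to 0.30, *Kdm2b* -0.058 to 0.40, *Kdm4a* -0.19 to 0.26, *Kdm5b* -0.15 to 0.42 and *Kdm6b* -0.16 to 0.69. The cause was not tested.

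Under a replicate block of the 4 days of each series (correlation 0.217), the counts were 0, 0 and 0 for the knockdown comparisons, 5 for day 7 against day 4 (*Kdm2a* added, adjusted p = 0.0301, limma) and 5 for day 5 against day 4 (*Kdm5b* added, adjusted p = 0.0269). Deviations of a hairpin correlated between days at -0.21 to 0.82 (12 values), with the highest for *Smarcc1* between days 5 and 6. The reported values do not use the block and so treat the 4 days of a hairpin as separate. With the block, calls over all genes went from 1412 to 605 in *Smarcc1* and from 892 to 258 in *Smarca4* knockdown. The adjusted p of *Kdm4c* in *Smarcc1* knockdown went to 0.252 (limma). The planned quasi-likelihood count test was not run because the deposited unit is log2, and voom used median-of-ratios scaling in place of TMM.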
